A study of Homo sapiens with 9 samples.

Results

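The 40 genes described here encode serine- and arginine-rich (SR) splicing factors, the CLK and SRPK kinases that phosphorylate them, and partner proteins rich in arginine and serine, many with retained introns or poison exons. They were listed by symbol and mapped to the numeric NCBI Gene IDs of the count tables, which hold 28395 genes. Earlier results of these data were known when the list was made, and LUC7L3, PNISR and ARGLU1 had already stood out as lower with carminic acid, so the members' levels, and any calls of members under other settings, are a description, and no p-value of a member is given. The cells were differentiated Caco-2 cells, an established line from a human colon cancer that grows into a layer resembling absorptive enterocytes, labelled wild type. They had spent 24 h with 20 µM carminic acid, with 10 µM carmine or in regular culture medium (control), and RNA-seq gave 3 libraries per group, lettered A, B and C. Carminic acid, a red anthraquinone, is the pigment of the cochineal insect, and in carmine it is bound to aluminium. Since the concentrations differ, the colorants are shown side by side and each was compared only with control. Whether a group's 3 samples were grown as separate cultures is not stated, so the spread between them may be technical and p-values measure only that spread.

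SR proteins bind short enhancer sequences in exons and recruit the U1 and U2 particles to the neighbouring splice sites. Their arginine-serine tails are phosphorylated by SRPK kinases in the cytoplasm and by CLK kinases in the nucleus, which controls their entry into the nucleus, their release from nuclear speckles and their action in splicing. Many of these genes regulate themselves: a poison exon with an early stop codon sends part of their RNA to nonsense-mediated decay, and introns detained in the nucleus hold back another part. In the intestinal epithelium, as in other tissues, they are expressed broadly and set the splice forms of large numbers of other genes.

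The promoters of 3 members are shown, those of LUC7L3, PNISR and ARGLU1, because these genes had stood out in the earlier results and were lower together here. Each run covers 250 bases before to 25 bases after the annotated start in RefSeq (GRCh38.p14), read on the gene's own strand, and capitals mark every match to 1 of 7 short promoter motifs searched on both strands. LUC7L3 (chr17:50719353-50719627, plus strand) has a CCAAT box and 3 GC boxes. PNISR (chr6:99425284-99425558, minus strand) has a TATAAA match 232 bases before its start, an ETS motif nearer to it and a YY1 motif across it. ARGLU1 (chr13:106568113-106568387, minus strand) has a GC box and a YY1 motif just inside the transcript.
LUC7L3: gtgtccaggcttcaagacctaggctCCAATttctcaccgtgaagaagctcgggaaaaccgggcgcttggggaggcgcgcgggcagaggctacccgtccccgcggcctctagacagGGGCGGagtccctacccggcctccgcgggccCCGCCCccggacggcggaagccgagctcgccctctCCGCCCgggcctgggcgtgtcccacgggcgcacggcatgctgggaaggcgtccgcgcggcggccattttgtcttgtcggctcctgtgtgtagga
PNISR: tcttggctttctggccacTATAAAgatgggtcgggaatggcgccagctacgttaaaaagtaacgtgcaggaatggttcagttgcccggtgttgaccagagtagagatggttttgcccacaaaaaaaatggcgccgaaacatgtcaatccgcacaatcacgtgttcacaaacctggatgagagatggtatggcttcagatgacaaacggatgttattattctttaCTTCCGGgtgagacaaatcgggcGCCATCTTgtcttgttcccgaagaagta
ARGLU1: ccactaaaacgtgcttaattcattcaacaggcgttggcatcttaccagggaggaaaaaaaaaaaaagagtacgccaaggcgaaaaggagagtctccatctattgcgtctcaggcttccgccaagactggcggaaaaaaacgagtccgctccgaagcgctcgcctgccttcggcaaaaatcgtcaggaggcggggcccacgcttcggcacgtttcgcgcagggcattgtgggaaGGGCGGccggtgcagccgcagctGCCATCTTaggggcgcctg

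No motif was found in all 3 promoters, and no match in them overlaps another. RefSeq windows were at hand for 37 of the 40 members, and those of RBM39, SRSF2 and TRA2A were not used here. The NRF1 motif, a pair of GCGC runs with any 2 bases between them, was in 12 of the 37 windows, among them those of SRSF1, SRSF6, SRSF10, CLK1 and TIA1, and in 8.40% of all 27305 promoter windows of this length. The ETS motif CCGGAAG was in 8 of 37 against 10.2% of all windows, and the YY1 motif AAGATGGC in 3 of 37 (PNISR, ARGLU1 and RBM25) against 2.22%. The CRE TGACGTCA was in 2 of 37 against 1.97% of all windows, and the TATA box TATAAA in 5 of 37 against 11.6%. The CCAAT box was in 12 of 37 against 34.5%, and the GC box GGGCGG in 19 of 37 against 43.5%. These matches describe letters in a window and not binding.

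Total counts ran from 54871018 to 57581301 per library, so depth differed little. Of 10 enterocyte markers, 9 were detected and tested, and VIL1 (villin) stood at 1107 to 1346 CPM in the 9 libraries, where CPM is the count scaled to library size with TMM factors. All 3 carminic acid libraries of VIL1 lay above control, with a log2 fold change of 0.12 ± 0.08 (SE). With carmine it overlapped, and the other tested enterocyte markers overlapped with control in both comparisons. The median over the 9 was 0.07 with carminic acid and 0.01 with carmine (0.02 without carmine C). KRT20 had 0 counts, and of 13 markers of other cell types 7 had 0 to 29 counts in all libraries together, among them MUC2 (goblet cells), CHGA (enteroendocrine cells) and PTPRC (leukocytes). The other 6 were detected and tested: CD68 at 299.7 to 389 CPM, COL1A1 at 93.6 to 146 CPM, LYZ at 8.89 to 13.8 CPM, PECAM1 at 9.77 to 12.5 CPM, COL3A1 at 3.005 to 5.53 CPM and VWF at 0.81 to 1.36 CPM, each with groups that overlapped in both comparisons. Summed over the 13, these markers ran from 461 to 518 CPM with carminic acid, from 454 to 489 CPM with carmine and from 434 to 504 CPM in control cells, and their part in the members' values was not tested. Carmine library C stood apart on the first principal component, with a score of 26.6 against -13.7 to 11.1 for the other libraries. Carmine medians of the main fit and the count of all members lower without overlap are therefore also given without it. The same holds for members' values that shrank markedly without it. Mitochondrial genes took 1.24% to 2.08% of the counts with carminic acid, 0.974% to 1.30% with carmine and 1.94% to 2.51% in control cells. With mitochondrial genes left out of every step, the members' medians stayed at -0.18 and -0.20 on the log2 scale.

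Most of the 38 members with enough counts for testing were lower with either colorant, though in bulk libraries fewer cells with a transcript and less of it per cell cannot be told apart. The fitted log2 fold change against control was negative for 32 of 38 with carminic acid and for 34 of 38 with carmine. The median over the members was -0.18 with carminic acid and -0.20 with carmine, against -0.01 and 0.01 over all 16017 tested genes. All 3 values with carminic acid lay below all 3 control values for 24 members and above them for 1 (CLK3), where 8.82% of all tested genes were lower and 12% higher without overlap. With carmine, 20 members were lower without overlap and 0 higher, where the shares of all tested genes were 7.67% and 7.32%. As the members were chosen with these comparisons in view, nothing is read from the distance to these shares. An exact permutation test of 3 against 3 libraries cannot give a two-sided p under 0.1.

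No gene passed the test across all genes, members included. In edgeR's quasi-likelihood test with Benjamini-Hochberg adjustment, 0% of the 16017 genes had an adjusted p under 0.05 in either comparison, and limma-voom also called 0. At an unadjusted p under 0.05, 627 of all genes were lower (3.91%) and 403 higher (2.52%) with carminic acid, and 898 were lower (5.61%) and 862 higher (5.38%) with carmine. DESeq2 called 8 genes with carminic acid (0.0358%), 4 of them members (LUC7L3, PNISR, ARGLU1 and LENG8). It called 75 genes with carmine (0.471%), 7 of them members (the same 4 with CCNL2, RBM25 and RBM39). A fit of only the 6 libraries compared called 49 genes with carminic acid (0.31%), 9 of them members, and 12 genes with carmine (0.076%), 0 of them members. With no filter beyond 1 count, edgeR called 2 genes with carminic acid (0.00895%), 1 of them a member (LUC7L3), and 19 genes with carmine (0.085%), 4 of them members (CCNL2, LUC7L3, ARGLU1 and RBM25). The 2 comparisons share the control libraries, so a member lower in both is not 2 independent observations. Without overlap, 18 members were lower in both comparisons, as were 352 tested genes (2.20%).

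**Figure D1:**
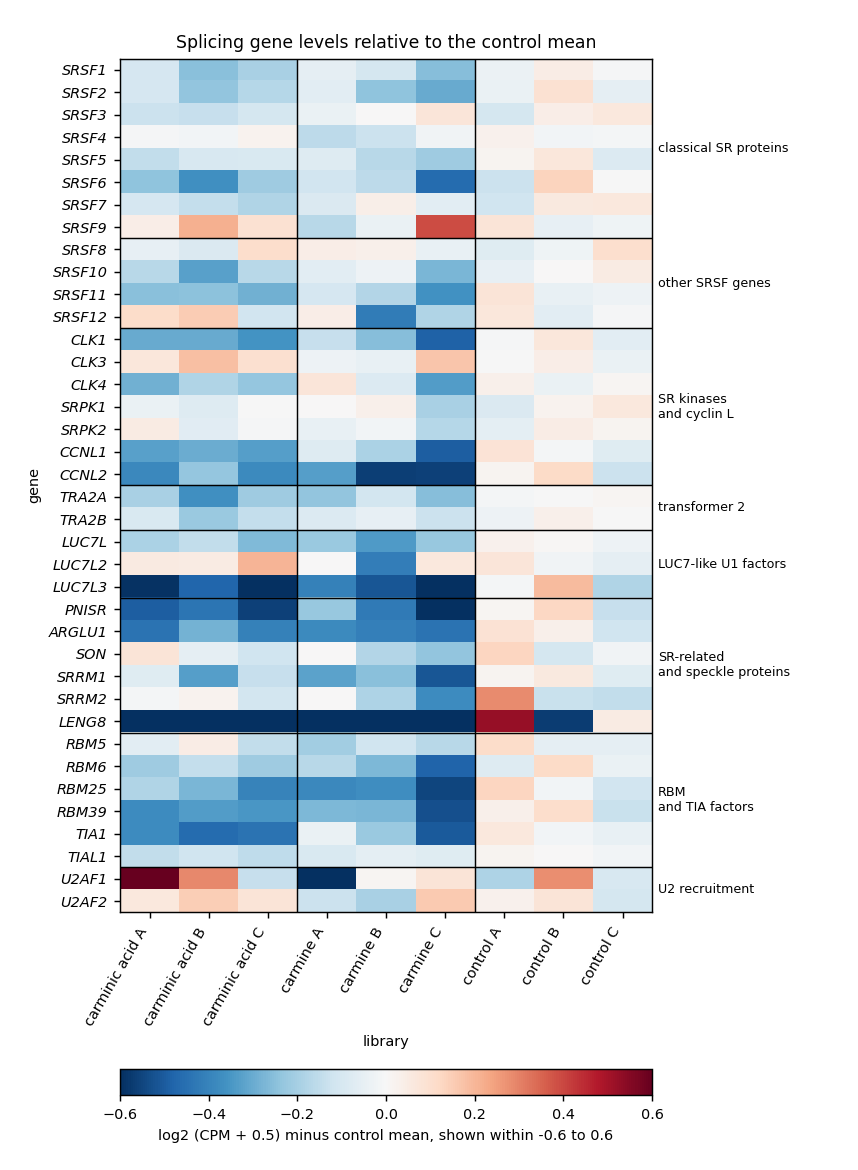
Level of each of the 38 tested members in each library, as log2 of CPM plus 0.5 minus the mean of the control libraries, with rows grouped by role, columns by group, and colours held within -0.6 to 0.6. Blue prevails in the carminic acid and carmine columns: the library medians over the members ran from -0.17 to -0.14 with carminic acid, from -0.26 to -0.09 with carmine and from -0.04 to 0.03 in control cells.

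The LUC7-like proteins belong to the U1 particle and help it choose 5′ splice sites. LUC7L3 (NCBI Gene 51747, chr17:50719603-50756219, GRCh38.p14), which carries a long arginine-serine tail, had the lowest log2 fold change in both comparisons among members with at least 1 CPM in every library. LUC7L3 had 206, 223 and 197 CPM with carminic acid, 235, 217 and 186 CPM with carmine and 309, 355 and 274 CPM in control cells. LUC7L3 thus averaged 209 ± 13.2 CPM with carminic acid, 213 ± 24.9 CPM with carmine and 312 ± 40.3 CPM in control cells (SD, n = 3 each). On the log2 scale LUC7L3 differed from control by -0.58 ± 0.10 with carminic acid and -0.56 ± 0.10 with carmine (SE). The highest carminic acid library was below the lowest control library, and so was the highest carmine library. LUC7L had 22.5, 23.3 and 21.4 CPM with carminic acid, 22.0, 20.3 and 22.0 CPM with carmine and 26.3, 25.9 and 25.3 CPM in control cells. LUC7L had a fitted log2 fold change of -0.21 ± 0.08 with carminic acid and -0.27 ± 0.08 with carmine (SE). LUC7L was thus also lower without overlap with either colorant, by a smaller amount than LUC7L3. LUC7L2 was different: at 8.87 to 9.95 CPM with carminic acid, 6.30 to 8.96 CPM with carmine and 8.23 to 9.03 CPM in control cells, its groups overlapped, and a read-through gene that overlaps it makes its counting uncertain.

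PNISR, ARGLU1, SON, SRRM1, SRRM2 and LENG8 encode SR-related proteins, most of them residents of nuclear speckles. PNISR (NCBI Gene 25957, chr6:99398050-99425308, GRCh38.p14) encodes a speckle protein found through its partner pinin. PNISR had 59.6, 62.0 and 56.8 CPM with carminic acid, 71.9, 62.6 and 54.0 CPM with carmine and 84.9, 91.8 and 76.4 CPM in control cells. PNISR thus averaged 59.5 ± 2.62 CPM with carminic acid, 62.8 ± 8.95 CPM with carmine and 84.3 ± 7.71 CPM in control cells (SD, n = 3 each). For PNISR the log2 fold change was -0.50 ± 0.10 with carminic acid and -0.43 ± 0.10 with carmine (SE). Its groups did not overlap in either comparison, though the overlapping antisense gene PNISR-AS1, with 2161 counts in the 9 libraries together, cannot be told apart where counting ignored strand. ARGLU1 (NCBI Gene 55082, chr13:106541673-106568137, GRCh38.p14), a modulator of splicing and a coactivator of nuclear receptors, was lower too. ARGLU1 had 44.7, 50.01 and 45.8 CPM with carminic acid, 46.6, 45.7 and 44.6 CPM with carmine and 64.6, 62.3 and 56.1 CPM in control cells. ARGLU1 thus averaged 46.8 ± 2.82 CPM with carminic acid, 45.6 ± 0.973 CPM with carmine and 61.0 ± 4.40 CPM in control cells (SD, n = 3 each). Relative to control, ARGLU1 differed by -0.38 ± 0.08 with carminic acid and -0.42 ± 0.08 with carmine on the log2 scale (SE), and -0.24 with carminic acid once GC and length trends were removed. The 3 carmine libraries were nearly level, and every library with a colorant was below the lowest control library.

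SRRM1, a coactivator that bridges exon-bound SR proteins and the spliceosome, was lower without overlap with either colorant. SRRM1 had 76.6, 63.9 and 73.2 CPM with carminic acid, 64.3, 67.6 and 56.2 CPM with carmine and 81.4, 83.8 and 76.6 CPM in control cells. Carminic acid A sat just under control C, at 76.55 against 76.63 CPM, so the gap was nearly nil there. The log2 fold change of SRRM1 was -0.18 ± 0.09 with carminic acid and -0.36 ± 0.09 with carmine (SE). SRRM2 and SON, the scaffolds of the speckle, overlapped with control. SRRM2 had 693, 708 and 647 CPM with carminic acid, 701, 614 and 538 CPM with carmine and 851, 636 and 631 CPM in control cells. Control A was far above the other control libraries for SRRM2. Without control A its log2 fold change with carminic acid was 0.10, where it was -0.05 with all libraries. SON ranged from 345 to 396 CPM with carminic acid, from 319 to 375 CPM with carmine and from 349 to 410 CPM in control cells.

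LENG8, a relative of the mRNA export factor GANP, had few counts. It had 5, 20 and 4 counts with carminic acid, 32, 8 and 33 counts with carmine and 145, 54 and 99 counts in control cells. The groups did not overlap, with a log2 fold change of -3.34 ± 0.61 with carminic acid and -2.02 ± 0.55 with carmine (SE). Its carminic acid value was -4.42 without carminic acid B. How reads that map to several places were counted is not given in the sources used here, and at 4 to 145 counts LENG8 is reported as uncertain. Without LENG8, the 5 other SR-related genes spanned -0.50 to -0.03 with carminic acid and -0.43 to -0.14 with carmine.

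**Figure D2:**
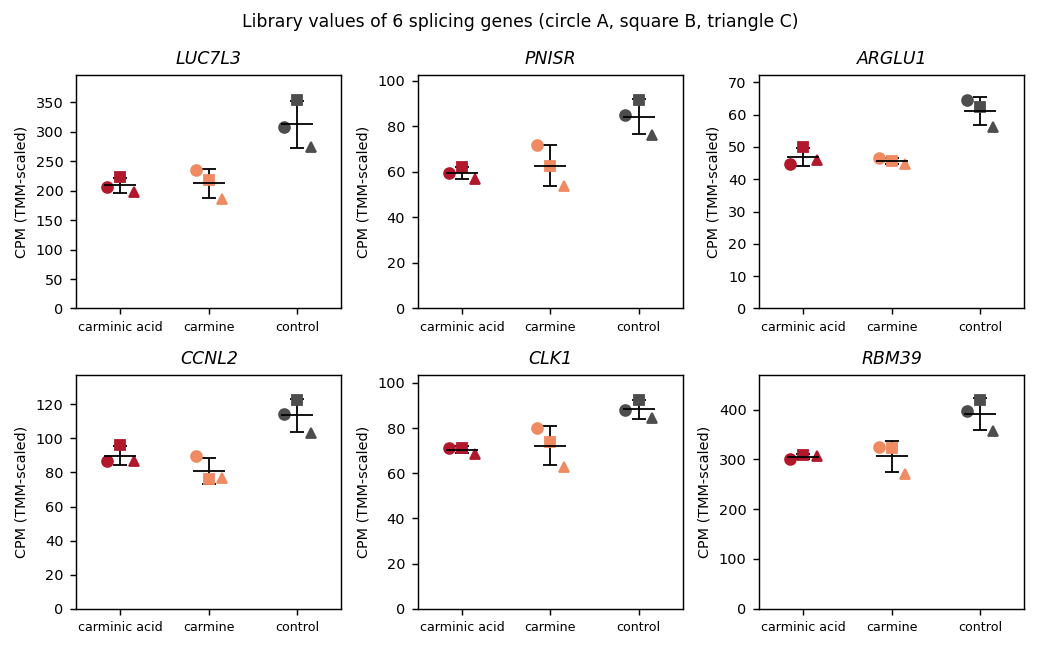
TMM-scaled CPM of LUC7L3, PNISR, ARGLU1, CCNL2, CLK1 and RBM39 in every library (circle A, square B, triangle C), with the mean and SD of the 3 libraries of each group. In each panel all 6 libraries with a colorant lie below the lowest control library, and carmine C is the lowest carmine library in every panel but CCNL2, where carmine B is.

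Of the 5 tested kinases, CLK1 was lower without overlap with both colorants and CLK4 with carminic acid. CLK1 is the best studied nuclear SR kinase, and part of its RNA is held in the nucleus with retained introns. CLK1 had 71.4, 71.3 and 68.6 CPM with carminic acid, 80.2, 73.9 and 62.9 CPM with carmine and 87.9, 92.5 and 84.4 CPM in control cells. CLK1 thus averaged 70.4 ± 1.59 CPM with carminic acid, 72.3 ± 8.75 CPM with carmine and 88.3 ± 4.05 CPM in control cells (SD, n = 3 each). On the log2 scale CLK1 differed from control by -0.33 ± 0.09 with carminic acid and -0.29 ± 0.09 with carmine (SE), and -0.19 with carmine without library C. Neither colorant's libraries overlapped those of control. CLK4 had 21.5, 23.2 and 22.3 CPM with carminic acid, 27.7, 24.8 and 20.7 CPM with carmine and 26.9, 25.6 and 26.5 CPM in control cells. All carminic acid libraries of CLK4, the closest relative of CLK1, lay below control, while carmine A lay above every control library. CLK4 had a fitted log2 fold change of -0.24 ± 0.10 with carminic acid and -0.11 ± 0.10 with carmine (SE), and -0.10 with carminic acid once GC and length trends were removed. Without carmine C its carmine value was 0.00.

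CLK3 was the 1 member higher without overlap, with carminic acid. CLK3 had 69.2, 74.8 and 70.7 CPM with carminic acid, 64.6, 64.1 and 74.2 CPM with carmine and 66.0, 67.9 and 64.3 CPM in control cells. For CLK3 the log2 fold change was 0.12 ± 0.08 with carminic acid and 0.03 ± 0.08 with carmine (SE). Its carmine value turned to -0.03 without carmine C and its carminic acid value was 0.05 once GC and length trends were removed. SRPK1, the cytoplasmic kinase that primes SR proteins for import, overlapped with control. SRPK1 had 151, 147 and 154 CPM with carminic acid, 155, 158 and 135 CPM with carmine and 146, 157 and 162 CPM in control cells. SRPK2 overlapped too, at 34.6 to 37.7 CPM with carminic acid, 32.2 to 35.9 CPM with carmine and 34.9 to 37.6 CPM in control cells. CLK2 could not be tested, with 2 counts in control C and 0 in the other libraries.

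Cyclins L1 and L2 pair with the CDK11 kinases and carry arginine-serine regions themselves. CCNL2 had 86.6, 96.2 and 86.7 CPM with carminic acid, 89.9, 76.4 and 76.6 CPM with carmine and 114, 123 and 103 CPM in control cells. CCNL2 thus averaged 89.8 ± 5.52 CPM with carminic acid, 80.9 ± 7.75 CPM with carmine and 113 ± 9.62 CPM in control cells (SD, n = 3 each). Relative to control, CCNL2 differed by -0.34 ± 0.09 with carminic acid and -0.49 ± 0.09 with carmine on the log2 scale (SE). For CCNL2 all 6 libraries with a colorant lay below control. CCNL1 had 56.1, 57.2 and 55.9 CPM with carminic acid, 66.7, 61.8 and 49.9 CPM with carmine and 74.6, 70.0 and 67.0 CPM in control cells. The log2 fold change of CCNL1 was -0.32 ± 0.10 with carminic acid and -0.25 ± 0.10 with carmine (SE), and -0.13 with carmine without library C. For CCNL1, carmine A at 66.7 CPM sat just under control C at 67.0 CPM, while the carminic acid libraries lay close together, well below control.

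The 8 classical SR proteins had a median log2 fold change of -0.14 with carminic acid, where 5 of them were lower without overlap, and of -0.12 with carmine, where 3 were, beside 8.82% and 7.67% of all tested genes. With GC and length trends removed the carminic acid median was -0.06, and without carmine C the carmine median was -0.11. SRSF1, the founding member of the family, and SRSF2, which marks nuclear speckles in microscopy, were lower without overlap with both colorants. SRSF1 had 182, 164 and 170.4 CPM with carminic acid, 188, 181 and 163 CPM with carmine and 190.0, 201 and 194 CPM in control cells. SRSF2 had 84.3, 76.7 and 80.3 CPM with carminic acid, 86.7, 76.5 and 73.4 CPM with carmine and 88.1, 96.6 and 87.1 CPM in control cells. On the log2 scale SRSF1 differed from control by -0.18 ± 0.07 with carminic acid and -0.14 ± 0.07 with carmine (SE), and -0.08 with carminic acid once GC and length trends were removed, and -0.07 with carmine without library C. SRSF2 had a fitted log2 fold change of -0.17 ± 0.08 with carminic acid and -0.20 ± 0.08 with carmine (SE). SRSF2 overlaps MFSD11 on the chromosome, which had 16443 counts in the 9 libraries together, so reads of both genes could be mixed. The same holds for SRSF4 with MECR, SRSF9 with GATC, SRSF12 with PM20D2, SRPK2 with KMT2E, CLK3 with CLK3-AS1 and RBM5 with RBM5-AS1, which overlap in the annotation.

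SRSF6, another binder of exonic enhancers, had the lowest log2 fold change of the classical members. SRSF6 had 192, 176 and 196 CPM with carminic acid, 210.1, 203 and 165 CPM with carmine and 208, 249 and 227 CPM in control cells. For SRSF6 the log2 fold change was -0.28 ± 0.09 with carminic acid and -0.24 ± 0.09 with carmine (SE), and -0.16 with carminic acid once GC and length trends were removed, and -0.14 with carmine without library C. Carmine A overlapped control A, while all carminic acid libraries were below control. SRSF3, the smallest SR protein, was lower without overlap with carminic acid by almost no gap, with 198.3 CPM in carminic acid C against 198.5 CPM in control A, and overlapped with carmine. SRSF3 had 195, 194 and 198 CPM with carminic acid, 208, 214 and 224 CPM with carmine and 198, 219.6 and 223 CPM in control cells. Relative to control, SRSF3 differed by -0.13 ± 0.07 with carminic acid and 0.01 ± 0.07 with carmine on the log2 scale (SE). Its carminic acid value was -0.0046 once GC and length trends were removed.

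SRSF5 had 125, 129 and 130.2 CPM with carminic acid, 131, 123 and 119.6 CPM with carmine and 140.2, 145 and 131 CPM in control cells. SRSF5 was lower without overlap with carminic acid, with 130.2 CPM in carminic acid C against 130.7 CPM in control C, and carmine A overlapped control C. The log2 fold change of SRSF5 was -0.11 ± 0.07 with carminic acid and -0.15 ± 0.07 with carmine (SE). SRSF4 had 46.8, 46.5 and 47.7 CPM with carminic acid, 42.1, 43.0 and 46.4 CPM with carmine and 47.9, 46.5 and 46.7 CPM in control cells. SRSF4 was level with carminic acid, and its 3 carmine libraries lay below control, carmine C only just. On the log2 scale SRSF4 differed from control by -0.00 ± 0.07 with carminic acid and -0.10 ± 0.07 with carmine (SE). SRSF7 ranged from 55.4 to 58.6 CPM with carminic acid, from 59.2 to 64.5 CPM with carmine and from 57.9 to 65.7 CPM in control cells. SRSF9 ranged from 67.8 to 76.4 CPM with carminic acid, from 58.5 to 86.6 CPM with carmine and from 63.5 to 69.5 CPM in control cells. Both overlapped with control, and the high carmine value of SRSF9 came from library C.

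Of the other SRSF genes, SRSF11 was lower without overlap with both colorants and SRSF10 with carminic acid. SRSF11 encodes a large SR-related protein. SRSF11 had 121, 121 and 118 CPM with carminic acid, 134, 127 and 111 CPM with carmine and 152, 139 and 141 CPM in control cells. SRSF11 had a fitted log2 fold change of -0.26 ± 0.08 with carminic acid and -0.21 ± 0.08 with carmine (SE), and -0.13 with carminic acid once GC and length trends were removed, and -0.13 with carmine without library C. SRSF10 encodes a factor that turns into a splicing repressor when it loses its phosphates. SRSF10 had 69.5, 62.0 and 69.4 CPM with carminic acid, 74.4, 76.3 and 64.4 CPM with carmine and 75.3, 78.0 and 80.5 CPM in control cells. For SRSF10 the log2 fold change was -0.22 ± 0.08 with carminic acid and -0.12 ± 0.08 with carmine (SE), and -0.05 with carminic acid once GC and length trends were removed, and -0.04 with carmine without library C. Carmine B was above control A for SRSF10. SRSF8, a copy of SRSF2 made by retrotransposition, ranged from 63.1 to 72.2 CPM with carminic acid, from 65.0 to 69.0 CPM with carmine and from 63.6 to 72.0 CPM in control cells, with overlap. SRSF12 was barely expressed, at 15 to 24 counts with carminic acid, 7 to 21 counts with carmine and 17 to 21 counts in control cells.

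The transformer 2 proteins TRA2A and TRA2B bind purine-rich exonic enhancers and have arginine-serine regions at both ends. TRA2A had 36.0, 31.9 and 35.5 CPM with carminic acid, 34.9, 38.1 and 34.5 CPM with carmine and 41.0, 41.1 and 41.6 CPM in control cells. TRA2B had 93.3, 85.1 and 90.0 CPM with carminic acid, 94.0, 96.0 and 90.9 CPM with carmine and 97.4, 102 and 99.3 CPM in control cells. Relative to control, TRA2A differed by -0.26 ± 0.08 with carminic acid and -0.20 ± 0.08 with carmine on the log2 scale (SE), and -0.16 with carminic acid once GC and length trends were removed. The log2 fold change of TRA2B was -0.15 ± 0.07 with carminic acid and -0.09 ± 0.07 with carmine (SE), and -0.07 with carminic acid once GC and length trends were removed. Both were lower without overlap with either colorant, and the control libraries of TRA2A differed by less than 1 CPM.

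All 6 RBM and TIA factors had negative values in both comparisons, with medians of -0.24 with carminic acid and -0.28 with carmine. In each, 5 of 6 were lower without overlap, beside 8.82% and 7.67% of all tested genes. Without carmine C their carmine median was -0.19. RBM39, a relative of U2AF2 that is degraded by anticancer sulfonamides, was the most abundant member per kilobase of transcript. RBM39 had 300.3, 309.8 and 306 CPM with carminic acid, 324, 323 and 271 CPM with carmine and 398, 419.6 and 356 CPM in control cells. RBM39 thus averaged 305 ± 4.81 CPM with carminic acid, 306 ± 30.4 CPM with carmine and 391 ± 32.3 CPM in control cells (SD, n = 3 each). On the log2 scale RBM39 differed from control by -0.36 ± 0.08 with carminic acid and -0.36 ± 0.08 with carmine (SE). The colorant libraries were all clear of control. RBM25, which binds exonic enhancers and steers BCL2L1 splicing, was lower without overlap with both colorants. RBM25 had 103, 96.9 and 88.8 CPM with carminic acid, 89.7, 90.6 and 79.9 CPM with carmine and 128, 116 and 108 CPM in control cells. RBM25 had a fitted log2 fold change of -0.29 ± 0.08 with carminic acid and -0.44 ± 0.09 with carmine (SE), and -0.18 with carminic acid once GC and length trends were removed. The highest carmine library of RBM25 stood at 90.6 CPM and the lowest control library at 108 CPM.

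TIA1 and TIAL1 bind U-rich sequence behind weak 5′ splice sites and also form stress granules. TIA1 had 63.4, 59.96 and 60.7 CPM with carminic acid, 80.3, 70.8 and 58.1 CPM with carmine and 86.3, 81.7 and 80.1 CPM in control cells. For TIA1 the log2 fold change was -0.43 ± 0.10 with carminic acid and -0.25 ± 0.10 with carmine (SE), and -0.28 with carminic acid once GC and length trends were removed, and -0.13 with carmine without library C. All carminic acid libraries of TIA1 were far below control, and carmine A overlapped it. TIAL1 had 86.0, 87.6 and 85.8 CPM with carminic acid, 89.4, 91.5 and 90.7 CPM with carmine and 96.2, 95.3 and 94.2 CPM in control cells. Relative to control, TIAL1 differed by -0.14 ± 0.06 with carminic acid and -0.07 ± 0.06 with carmine on the log2 scale (SE), and -0.02 with carminic acid and -0.02 with carmine once GC and length trends were removed. TIAL1 averaged 86.5 ± 1.01 CPM with carminic acid, 90.5 ± 1.03 CPM with carmine and 95.3 ± 0.995 CPM in control cells (SD, n = 3 each), with no overlap. RBM5 and RBM6 are neighbours on chromosome 3, and RBM5 regulates the splicing of apoptosis genes such as FAS. RBM6 had 40.5, 42.5 and 40.5 CPM with carminic acid, 41.9, 38.9 and 33.6 CPM with carmine and 44.6, 50.9 and 45.8 CPM in control cells. RBM5 had 48.4, 52.2 and 45.5 CPM with carminic acid, 43.6, 46.4 and 45.0 CPM with carmine and 54.5, 48.6 and 48.7 CPM in control cells. The log2 fold change of RBM6 was -0.19 ± 0.09 with carminic acid and -0.31 ± 0.09 with carmine (SE). On the log2 scale RBM5 differed from control by -0.06 ± 0.08 with carminic acid and -0.17 ± 0.08 with carmine (SE). RBM6 was clear of control with both colorants, and RBM5 with carmine, while carminic acid B lay within the control range.

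U2AF1 and U2AF2 form the dimer that recognises the 3′ splice site, and DDX39B is the helicase that follows it. U2AF2 had 144, 153 and 145 CPM with carminic acid, 126, 120.3 and 154 CPM with carmine and 140.3, 145 and 128 CPM in control cells. U2AF2 had a fitted log2 fold change of 0.09 ± 0.09 with carminic acid and -0.05 ± 0.09 with carmine (SE). U2AF2 overlapped with control in both comparisons, with carmine C the highest of its group. U2AF1 had 573, 93 and 61 counts with carminic acid, 39, 72 and 75 counts with carmine and 59, 93 and 66 counts in control cells. Carminic acid A alone was high, and since the genome build holds a near-identical copy of U2AF1, its counts are uncertain. DDX39B had 0 counts in all libraries, below a limit of 3 counts per library or 0.0521 to 0.0547 CPM for counting error alone. PRPF8, a core factor of every spliceosome, also had only 0 to 7 counts per library, so values near 0 here cannot be read as absence of the RNA.

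**Figure D3:**
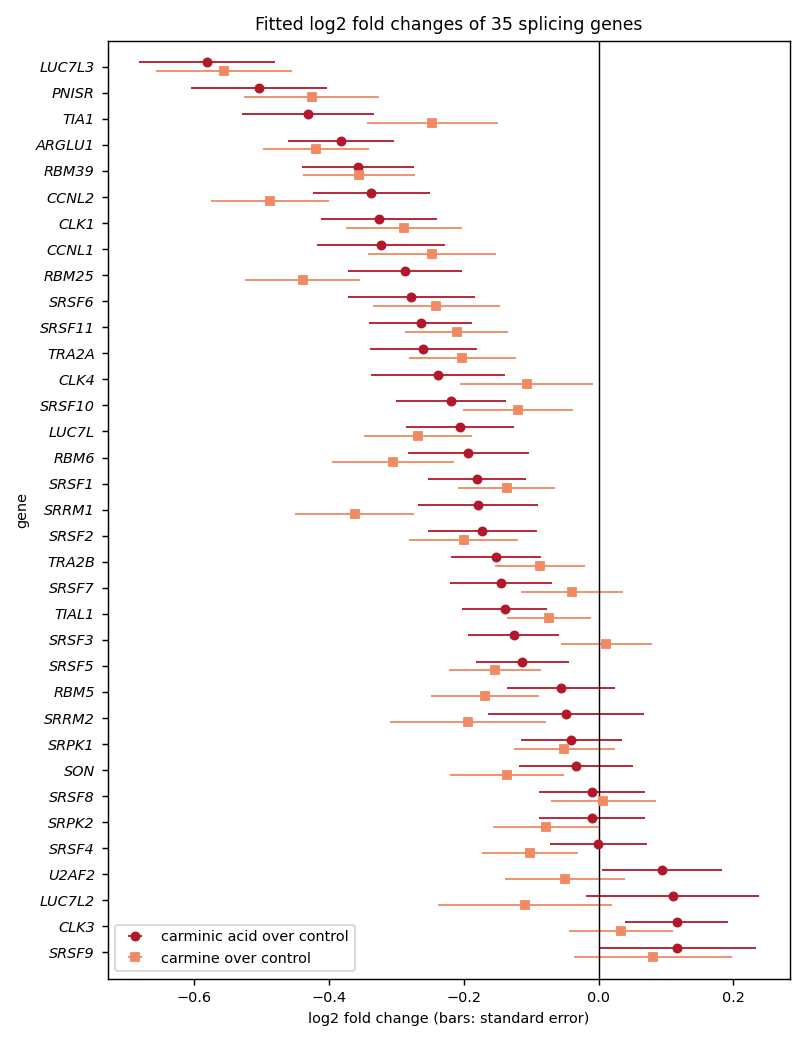
Fitted log2 fold change against control with its standard error for 35 tested members, carminic acid (circles) and carmine (squares), ordered by the carminic acid value; LENG8, U2AF1 and SRSF12 are left out for low counts. Values run from -0.58 (LUC7L3) to 0.12 (CLK3 and SRSF9) with carminic acid and from -0.56 (LUC7L3) to 0.08 (SRSF9, -0.10 without carmine C) with carmine.

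The fold change rose with GC content for carminic acid, and only weakly for carmine, but the relation also differed between libraries of a group. The median GC content of the longest transcript was 43.0% for the 38 tested members and 49.3% for tested genes in all. Over the 15453 tested genes with an annotated transcript, the Spearman correlation of the log2 fold change with GC content was 0.48 with carminic acid and 0.14 with carmine, and with transcript length it was -0.11 and -0.26, as a description across genes that share the same libraries. Over the members the correlation with GC content was 0.38 with carminic acid and 0.14 with carmine. Each library's deviation from the mean of all 9 libraries was also correlated with GC content over all genes. The coefficient was 0.06, -0.24 and -0.55 in control A, B and C. It was -0.47, -0.46 and 0.53 with carmine, and 0.10, 0.60 and 0.20 with carminic acid. Whether the relation belongs to a colorant or to single libraries was not tested. When each library's trends with GC content and length were taken out, the median over members was -0.10 with carminic acid and -0.17 with carmine, against 0.02 and 0.03 over all genes.

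After that step 29 of 38 members were negative with carminic acid and 33 of 38 with carmine. The count of members lower without overlap was 15 with carminic acid, where 5.82% of all genes were, and 21 with carmine, where 7.9% of all genes were. Of the 24 members lower without overlap with carminic acid, 12 had under 2/3 of their value left: SRSF1, SRSF3, SRSF6, SRSF10, SRSF11, CLK4, TRA2A, TRA2B, ARGLU1, RBM25, TIA1 and TIAL1. With carmine this held for TIAL1 alone of 20. LUC7L3 stood at -0.45 with carminic acid and -0.50 with carmine, PNISR -0.35 and -0.40, and CCNL2 -0.37 and -0.49. SRSF10 stood at -0.05, TIAL1 at -0.02 and TIA1 at -0.28 with carminic acid. The sign turned for SRSF8, SRPK1 and SRPK2 with carminic acid and for SRPK1 with carmine. In that fit edgeR called 0 members among 4 genes with carminic acid (0.025%) and 8 members among 311 genes with carmine (1.94%), namely CLK1, CCNL2, LUC7L, PNISR, ARGLU1, SRRM1, RBM25 and RBM39.

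**Figure D4:**
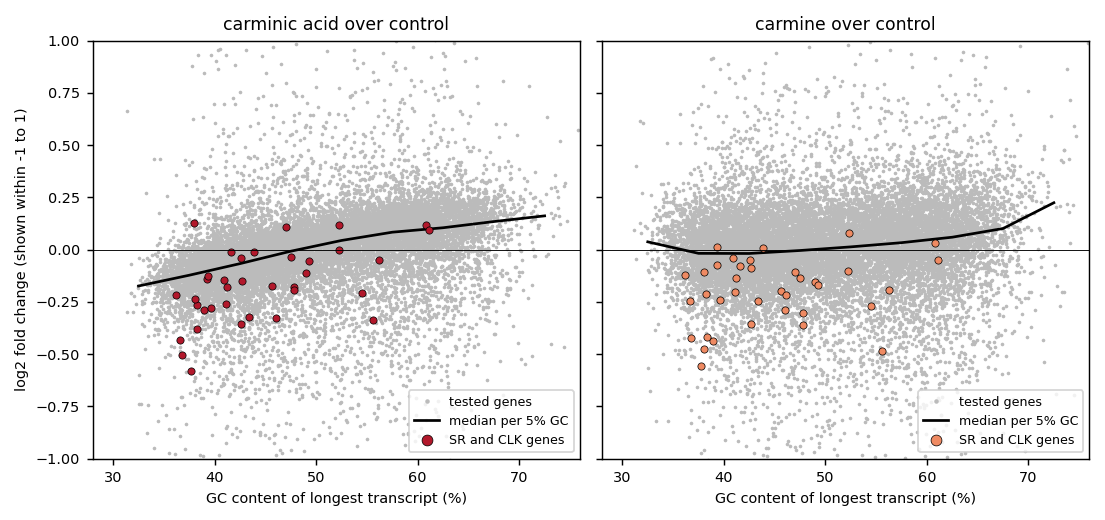
Log2 fold change of tested genes (grey), the median in windows of 5% GC (black line) and the members (coloured), against GC content of the longest transcript, for carminic acid (left) and carmine (right), shown within -1 to 1. The line rises with GC content for carminic acid, where Spearman's coefficient over all genes was 0.48, and less for carmine, where it was 0.14; most members lie left of the middle and below the line.

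Carmine library C was the lowest of its group for 24 of the 38 members. The median over members in single carmine libraries was -0.09 in A, -0.17 in B and -0.26 in C, while the carminic acid libraries were closer, at -0.14, -0.16 and -0.17. Without carmine C the median log2 fold change with carmine was -0.14, and LUC7L3 stood at -0.46, CCNL2 at -0.44, ARGLU1 at -0.40 and RBM25 at -0.38. Values were smaller for CLK1 at -0.19, SRSF6 at -0.14, CCNL1, TIA1 and SRSF11 at -0.13 each, SRSF1 at -0.07 and SRSF10 at -0.04. The count lower without overlap was then 22, where 14.5% of all genes were. In that fit edgeR called 36 of 16266 genes with carmine (0.221%), members CCNL2, LUC7L3, ARGLU1 and RBM25 among them, all lower. It called 21 genes with carminic acid (0.129%), of which 7 were members: CLK1, CCNL1, LUC7L3, PNISR, ARGLU1, RBM39 and TIA1. With any other single library left out, edgeR called at most 2 genes and no member with carminic acid, and at most 17 genes with carmine, among them members (CCNL2 and LUC7L3) only without carmine A.

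Of 3 noncoding RNAs that stay in the nucleus, MALAT1 and NEAT1 were lower without overlap with carminic acid, and none of the 3 with carmine. MALAT1, a speckle RNA, had 130, 146 and 110 CPM with carminic acid, 192, 166 and 111 CPM with carmine and 253, 214 and 164 CPM in control cells. NEAT1, the scaffold of paraspeckles, had 252, 299 and 216 CPM with carminic acid, 323, 244 and 245 CPM with carmine and 461, 402 and 307 CPM in control cells. With carminic acid the log2 fold change was -0.71 ± 0.23 for MALAT1 and -0.61 ± 0.17 for NEAT1 (SE). With carmine it was -0.43 ± 0.23 for MALAT1 and -0.53 ± 0.17 for NEAT1 (SE), and -0.22 and -0.45 without carmine C. KCNQ1OT1, the imprinted antisense RNA of the same list, overlapped with control in both comparisons, at -0.47 ± 0.34 with carminic acid and -0.29 ± 0.34 with carmine. Their part in the members' values was not tested.

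Most members have annotated transcripts with retained introns or early stop codons. In GENCODE v29, 34 of the 38 tested members (89.5%) have a transcript with a retained intron and 36 (94.7%) have one marked for nonsense-mediated decay. Over all tested genes the shares were 51.8% and 37.7%. Both forms were annotated for 32 members (84.2%) and for 28.8% of all tested genes, and the median number of transcripts was 14 for members and 7 for all. The list was made for such transcripts, so these shares describe it. Tested genes outside the list with both forms, 4421 in number, had a median log2 fold change of -0.004 with carminic acid and -0.002 with carmine, and 8.93% and 8.05% of them were lower without overlap. Gene-level counts cannot separate the productive form from the others.

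Other splicing genes had medians nearer 0, and the difference from the members was not tested. The 83 compared here were the tested genes of 6 lists (snRNP core, SF3 complex, PRPF factors, hnRNP proteins, exon junction complex and other RS-domain proteins). With carminic acid 23 were lower and 11 higher without overlap, beside 8.82% and 12% of all tested genes, with a median of -0.03. With carmine 16 were lower and 3 higher, beside 7.67% and 7.32%, with a median of -0.05 (-0.03 without carmine C). The 23 other RS-domain proteins came closest, with medians of -0.10 with carminic acid and -0.19 with carmine. Of these, 9 and 7 were lower without overlap, beside 8.82% and 7.67% of all tested genes. Their median was -0.03 with carminic acid once GC and length trends were removed, and -0.13 with carmine without library C. The lowest among them were ZRANB2, an SR-like zinc finger protein, at -0.34 ± 0.10 with carminic acid, and NKTR, a cyclophilin with RS repeats, at -0.37 ± 0.10 with carmine (SE). Once GC and length trends were removed, these values were -0.18 for ZRANB2 and -0.29 for NKTR.

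The 22 hnRNP proteins often oppose SR proteins. With carminic acid 6 were lower and 4 higher without overlap, beside 8.82% and 12% of all tested genes. With carmine 5 were lower and 1 higher, beside 7.67% and 7.32%. HNRNPH1, which binds G runs, had the lowest value of them with carminic acid, -0.21 ± 0.07, with 276 ± 7.68 CPM with carminic acid and 319 ± 17.2 CPM in control cells (SD, n = 3). HNRNPA2B1 had the lowest with carmine, at -0.24 ± 0.08. The highest values were those of PCBP2 with carminic acid and HNRNPLL with carmine, each 0.11 ± 0.07 and higher without overlap. SF3B1, the branch point factor, was lower without overlap with both, at 419 ± 11.1 CPM with carminic acid, 404 ± 35.8 CPM with carmine and 472 ± 10.1 CPM in control cells (SD, n = 3 each). Its log2 fold change was -0.17 with carminic acid and -0.22 with carmine, and -0.09 and -0.15 once GC and length trends were removed. Of the 10 genes of the SF3 complex, 1 was lower and 3 higher without overlap with carminic acid, beside 8.82% and 12% of all tested genes. With carmine 1 was lower and 0 higher, beside 7.67% and 7.32%. The SF3 medians were 0.03 with carminic acid and -0.01 with carmine (-0.03 without carmine C). Apart from PRPF31, which had few counts, the highest values of the 83 genes were those of SNRPB with carmine (0.32 ± 0.15, with carmine C far above the other libraries) and SCAF1 with carminic acid (0.19 ± 0.13), and both overlapped with control. The snRNP core had medians of -0.02 and 0.02, and the 10 nonsense-mediated decay factors had medians of 0.00 and -0.09. Without carmine C their carmine medians were 0.02 and -0.08. The 8 DYRK and HIPK kinases, relatives of the CLK family, had medians of -0.0003 with carminic acid and -0.14 with carmine (-0.11 without carmine C). Of these, 0 were lower without overlap with carminic acid and 1 with carmine, beside 8.82% and 7.67% of all tested genes. DYRK1B was the lowest of them, at -0.36 ± 0.18 with carminic acid, where it overlapped with control, and -0.52 ± 0.18 with carmine.

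**Figure D5:**
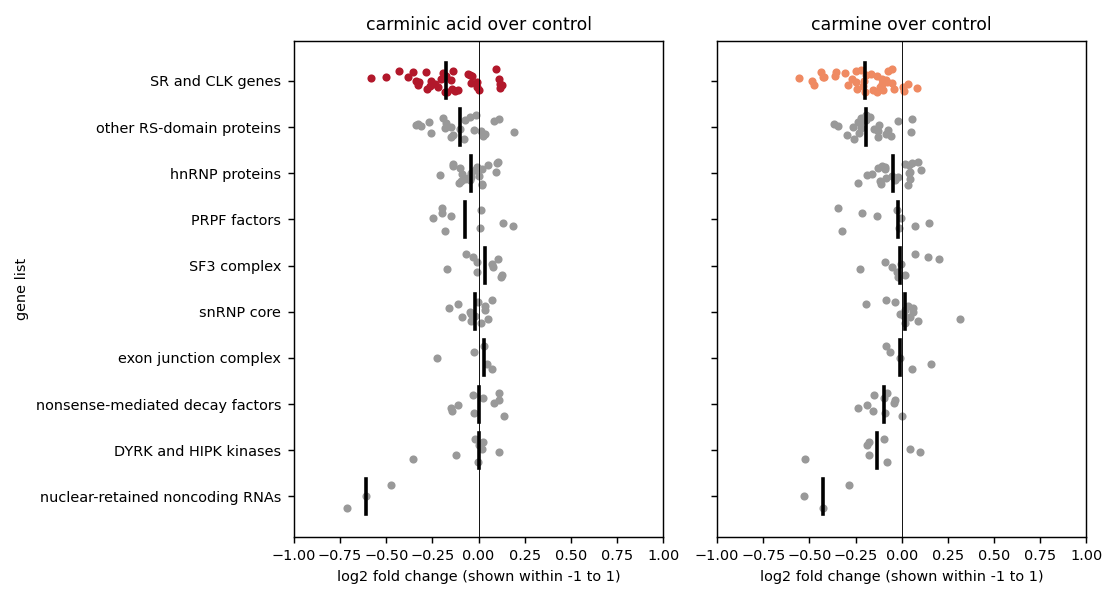
Log2 fold change of each tested gene (points) and the median (black bars) for the members in colour and 9 other gene lists in grey, carminic acid over control on the left and carmine over control on the right, shown within -1 to 1. The members' medians are -0.18 and -0.20, those of the other RS-domain proteins -0.10 and -0.19, and those of the nuclear-retained noncoding RNAs -0.61 and -0.43. Without carmine C these carmine medians were -0.14, -0.13 and -0.22.

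LUC7L3 had close company over the 9 libraries. The genes with the highest Pearson correlation of log2 CPM with it were PNISR (0.986), RBM39 (0.980), GARS1-DT (0.972), HNRNPH1 (0.971) and CLK1 (0.964), of which PNISR, RBM39 and CLK1 are members. These coefficients describe 9 libraries of 3 groups and share the group differences, so no p is given. ARGLU1 ranked at 9 and CCNL2 at 14 among all tested genes, while SRSF3, SRSF8, LUC7L2 and CLK3 ranked far lower, with coefficients of 0.20, -0.12, -0.08 and -0.46.

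The members differed widely in level. Per kilobase of the longest annotated transcript, the mean control CPM was 138 for RBM39, 75.5 for SRRM2, 62.6 for SRSF1, 54.9 for SRSF9, 52.7 for SRSF6 and 50.6 for SRSF3. CLK1 stood at 43.6, CLK3 at 25.2 and CLK4 at 10.2 CPM per kilobase, and SRPK1 at 33.7. LUC7L3 stood at 44.4, LUC7L at 12.3 and LUC7L2 at 3.08 CPM per kilobase. SRSF12, LENG8 and U2AF1 were at the low end with 0.09, 0.30 and 0.77.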

How the data were processed

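RNA of 9 Caco-2 samples was sequenced, 3 per group. Each library has 1 deposited table of raw counts, keyed by NCBI Gene ID. HISAT2 alignments were counted, per the file headers. The submitters' processing notes list FastQC, HISAT and featureCounts with the build hg38 and give no version. The sources used here do not give the kit, the strand setting, the annotation release or the handling of reads with several hits, so genes with close copies or overlapping neighbours have uncertain counts.

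The counts were fitted with edgeR 4.0.16 in R 4.3.3. filterByExpr by group kept 16017 of 28395 genes, and TMM factors scaled the libraries. A single robust quasi-likelihood model without covariate held all 9 libraries. Carminic acid and carmine were each tested against control, two-sided, with Benjamini-Hochberg adjustment over all tested genes and a threshold of 0.05. CPM are TMM-scaled, and a pseudocount of 0.5 was used for log2 levels of single libraries. The biological coefficient of variation was 10.9%. A step that takes out each library's trend with GC content and transcript length used splines with 4 degrees of freedom. The fit was tested on simulated data.

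The members, the 12 other gene lists and the tests were chosen with earlier results of these data known. Values were given for every library for members whose groups did not overlap in at least 1 comparison and for the highest member of each role. Other genes were named mainly as the highest or lowest of their list, and not every such gene was named. Some were named for other reasons, such as use as a marker, low counts or correlation with LUC7L3. Length, GC content and transcript types came from GENCODE v29 (GRCh38), and symbols, positions and promoters from RefSeq (GRCh38.p14). Deviations of same-letter libraries correlated at -0.25 to 0.19, so letters were not used as pairs. Library pairs within a group differed beyond sampling noise, with a chi-square per degree of freedom of at least 9.51. Other size factors, filters, tools (DESeq2 1.42.0 and voom of limma 3.58.1) and left-out libraries were tried.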

Additional observations from a re-analysis of the deposited data

How the results depend on the processing

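The median over members stayed negative in both comparisons under every alternative run. With carminic acid it was -0.10 with GC and length trends removed and ran from -0.20 to -0.14 with single libraries left out (-0.14 without control B, -0.15 without carminic acid B). With carmine it was -0.23 with library size alone and ran from -0.21 to -0.14 with single libraries left out. Members lower without overlap with carminic acid numbered 15 with the trends removed (5.82% of all genes) and 22 to 24 under the other alternatives that kept all 9 libraries or the 6 compared. With carmine they numbered 18 to 21 under those alternatives, and 22 without carmine C, where 14.5% of all genes were lower without overlap. Shares of all genes were taken only in the main fit (8.82% and 7.67%), with the trends removed and without carmine C. The other counts thus stand without a share and nothing is read from them. Genes called with carminic acid numbered 2 with no filter beyond 1 count, 8 with DESeq2, 4 with the trends removed and 49 in a fit of only the 6 libraries compared, of which 1, 4, 0 and 9 were members. With single libraries left out they numbered 0 to 21, and members among them 0 to 7. Genes called with carmine numbered 7 each with RLE factors, with library size alone and with mitochondrial genes left out, 19 with no filter, 75 with DESeq2, 311 with the trends removed and 12 with only 6 libraries, of which 0, 4, 7, 8 and 0 were members. With single libraries left out they numbered 0 to 36, and members among them 0 to 4. The cause of these differences in calls was not tested. With the replicate letter as a replicate block, 0 genes were called in either comparison, and the members' medians were -0.18 and -0.18. For the 30 members without overlap in at least 1 comparison or highest of their role, 1198 single values under alternatives were tallied. Of these, 20 shifted by over 1 SD and 13 turned sign, all 13 among 8 values of at most 0.11 in size. The other tested members were not in this tally, and SRSF8, SRPK2 and SRSF9 among them also turned sign under an alternative. Precision is limited by 3 libraries per group, and SRSF12, LENG8 and U2AF1 also had few counts.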

Other observations

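Several spliceosome genes had counts that stood far from the level of a working gene or differed by library alone, and these genes were picked after their values were seen. PRPF31, a tri-snRNP factor, had 0.53, 2.07 and 5.68 CPM with carminic acid, 10.3, 0.77 and 1.24 CPM with carmine and 0.63, 0.72 and 0.60 CPM in control cells, with the libraries of each colorant far apart. All 3 carmine libraries lay above control. Its log2 fold change was 2.08 ± 1.31 with carminic acid and 2.65 ± 1.30 with carmine (SE). U2AF1 was likewise high in 1 library, carminic acid A, with 573 counts against 39 to 93 in the other 8 libraries. DDX39B had 0 counts in all 9 libraries, CLK2 had 2, PRPF8 had 31 and the intestinal keratin gene KRT20 had 0. These counts are values of the deposited tables, and a level near 0 in them was not checked against reads.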
